A study of Rattus norvegicus with 6 samples.

Results

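The proteasome genes of the rat liver arrays were taken as all protein-coding rat genes whose symbol starts with Psma, Psmb, Psmc, Psmd, Psme or Psmf, and 44 of the 15284 genes with a named probe met this rule. For each gene the probe with the highest mean signal was used, and all 44 were well above background on all 6 arrays. Of the 44, 42 are proteasome genes, and Psmc3ip and Psme3ip1, which share the prefix but name partner proteins that are no subunits, were kept as members by the rule. Psmb11, the thymus-specific catalytic subunit, and Psmd11, a lid subunit, had no named probe and were not analysed here.

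The 3 treated animals were male Sprague-Dawley (Crl:CD(SD)) rats dosed with tert-butyl alcohol (tBA), a solvent and fuel additive, at 1000 mg/kg/day, and the 3 control animals were rats of the same sex and strain given vehicle. All were 5 weeks old at purchase. The labels disagree on the vehicle, water in the sample fields and corn oil in the dosing text, and on the length of dosing, 28 days in the series text and 9 weeks in the dosing text. The total RNA of each liver carried the dye Cy3 and was measured on its own one-colour Agilent array. The signal of a gene is given below as log2 of the processed signal over its array's 75th percentile, so a difference of 1 is a doubling of signal, and levels of different genes are not compared because each probe has its own brightness.

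The proteasome degrades proteins that carry ubiquitin chains. Its barrel, the 20S core, is built of outer rings of alpha subunits (Psma genes), which form the gate, and inner rings of beta subunits (Psmb genes), of which Psmb5, Psmb6 and Psmb7 hold the active sites. The 19S cap recognises, unfolds and feeds in the substrate through a ring of ATPases (Psmc genes) and a set of non-ATPase subunits (Psmd genes). Interferon-gamma induces Psmb8, Psmb9 and Psmb10, which replace Psmb5, Psmb6 and Psmb7 in the immunoproteasome, and Psme1 and Psme2, which form the activator PA28. The standard subunit genes are known targets of the transcription factor Nfe2l1, and some also of Nfe2l2, which bind antioxidant response elements (ARE). The immunoproteasome genes are known targets of Irf1, which binds interferon-stimulated response elements (ISRE), and gamma-activated sites (GAS) are another element of interferon-gamma-induced promoters.

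Promoter windows of both kinds of subunit are shown because the median signals of these kinds differed in opposite directions on the arrays. Every window shown holds a match, so they do not stand for their kind. The windows of Psmb9 and Psme1 held no ISRE or GAS match. Those of Psma6, Psma1, Psmc2 and Psmc6 held no ARE match. Psmb5, which is shown, differed by only 0.088 ± 0.098 (SE) between tBA and vehicle livers, with overlapping groups. Each window runs from 250 bases before to 50 bases after the annotated gene start, as RefSeq gives it on the GRCr8 assembly, and reads 5′ to 3′ on the gene's strand. The first 3 belong to interferon-inducible subunits, with matches to the ISRE core (GAAA, any 2 bases, GAAA) or to the GAS motif TTCNNNGAA on either strand in capitals, and the last pair to standard subunits, with matches to the ARE core TGACNNNGC on either strand in capitals. They are Psmb8 (chr20:4656982-4657281, minus strand), Psmb10 (chr19:50743243-50743542, minus strand), Psme2 (chr15:33052702-33053001, minus strand), Psmb5 (chr15:32047330-32047629, minus strand) and Psma3 (chr6:95219499-95219798, plus strand).
Psmb8: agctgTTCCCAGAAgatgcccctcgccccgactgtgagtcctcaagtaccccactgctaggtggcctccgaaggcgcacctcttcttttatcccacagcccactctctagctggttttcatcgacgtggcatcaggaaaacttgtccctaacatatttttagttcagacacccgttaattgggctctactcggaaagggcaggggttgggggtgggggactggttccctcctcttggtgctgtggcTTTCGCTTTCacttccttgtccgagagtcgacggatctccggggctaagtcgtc
Psmb10: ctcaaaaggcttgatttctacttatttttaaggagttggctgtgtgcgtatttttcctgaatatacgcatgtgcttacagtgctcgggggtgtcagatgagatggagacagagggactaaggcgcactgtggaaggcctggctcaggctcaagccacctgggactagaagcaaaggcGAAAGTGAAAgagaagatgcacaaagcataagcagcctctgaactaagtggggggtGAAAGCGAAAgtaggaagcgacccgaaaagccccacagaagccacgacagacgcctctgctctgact
Psme2: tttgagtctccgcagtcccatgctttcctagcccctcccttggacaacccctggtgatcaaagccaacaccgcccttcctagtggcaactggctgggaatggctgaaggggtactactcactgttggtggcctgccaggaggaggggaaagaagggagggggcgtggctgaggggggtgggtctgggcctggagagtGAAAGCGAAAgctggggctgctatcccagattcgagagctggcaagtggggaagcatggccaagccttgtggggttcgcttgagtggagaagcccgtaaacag
Psmb5: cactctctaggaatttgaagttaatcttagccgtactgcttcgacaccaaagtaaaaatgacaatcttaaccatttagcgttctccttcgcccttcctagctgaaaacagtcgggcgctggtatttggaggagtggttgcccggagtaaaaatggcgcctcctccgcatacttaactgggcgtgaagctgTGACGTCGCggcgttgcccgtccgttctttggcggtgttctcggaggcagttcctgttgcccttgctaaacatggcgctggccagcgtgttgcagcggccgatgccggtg
Psma3: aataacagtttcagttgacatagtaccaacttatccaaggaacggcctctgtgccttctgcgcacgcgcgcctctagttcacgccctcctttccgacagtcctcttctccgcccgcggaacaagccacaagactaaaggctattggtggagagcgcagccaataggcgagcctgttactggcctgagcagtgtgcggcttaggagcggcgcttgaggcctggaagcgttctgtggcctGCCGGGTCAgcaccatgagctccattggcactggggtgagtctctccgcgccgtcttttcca

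The Psmb8 window held a GAS match at its far end and an ISRE match that begins 4 bases before the start. The Psmb10 window held 2 ISRE matches, 73 and 17 bases before the start, and the Psme2 window 1, 53 bases before it. The ARE core lies 60 bases before the start in Psmb5 and 12 bases before it in Psma3. Windows were found for 40 of the 44 members, with none for Psma7, Psmd6, Psmd12 and Psmd14. The ISRE core was in 3 of the 5 interferon-inducible windows (Psmb8, Psmb10 and Psme2), in 3 of the 26 windows of standard 20S and 19S subunits (Psma4, Psmb3 and Psmd7) and in 3.92% of all 33469 RefSeq promoter windows. The GAS motif was in the Psmb8 window alone among the 5, in 3 of the 26 standard windows and in 8.87% of all windows. The ARE core was in 6 of the 26 standard windows (Psma3, Psmb2, Psmb5, Psmb6, Psmd1 and Psmd3), in 0 of the 5 interferon-inducible ones and in 12.1% of all windows. The CCAAT box, a common promoter element, was in 14 of the 26 standard windows, 2 of the 5 interferon-inducible ones and 37.5% of all windows. These are matches of letters and carry no information on binding.

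Across the arrays, 61.5% to 66.9% of probes were well above background, and saturation was found in 0 spots. Over all 61657 non-control probes the correlation was 0.984 to 0.989 between arrays of 1 group and 0.981 to 0.986 between arrays of different groups. The 3 vehicle arrays and tBA replicate 1 lay on 1 slide, and tBA replicates 2 and 3 on another with its own scan day, so the medians of the main groups and lists are also given within the first slide. Albumin, the main secreted protein of hepatocytes, averaged 9.58 ± 0.01 in tBA livers and 9.58 ± 0.06 in vehicle livers (SD, n = 3 each), while of all 8 hepatocyte markers 6 were higher and 2 were lower (median log2 difference 0.037), in a range of -0.36 for Apoa1 to 0.36 for Cps1. The summed signal of the 8 was 2630 to 2710 in tBA livers and 2640 to 2900 in vehicle livers. Of 11093 genes tested, 4 passed an adjusted p of 0.05 (0.0361%), by limma with Benjamini-Hochberg adjustment over genes. At an unadjusted p under 0.05 there were 842 genes higher with tBA (7.59%) and 828 lower (7.46%). The median difference over all genes tested was 0.002 on the log2 scale.

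No proteasome gene passed the adjusted test, with a smallest adjusted p of 0.203, yet the members were split by their roles. Of the 44, 35 were higher with tBA and 9 lower, beside 50.4% of all genes tested higher and 49.6% lower, and their median log2 difference was 0.161, with a range of -0.71 to 0.41. At an unadjusted p under 0.05, 8 members were higher and 1 lower, beside the 7.59% and 7.46% of all genes given above. The tBA arrays all lay above the vehicle arrays for 15 members, as for 12.8% of all genes, and all below them for 3 members, as for 11.4%. These 15 were all standard 20S or 19S subunits and these 3 were all interferon-inducible subunits, Psmb8, Psmb9 and Psme1. The median of the 44 was smaller without tBA replicate 2, at 0.091, and under quantile normalization, at 0.079.

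**Figure D1:**
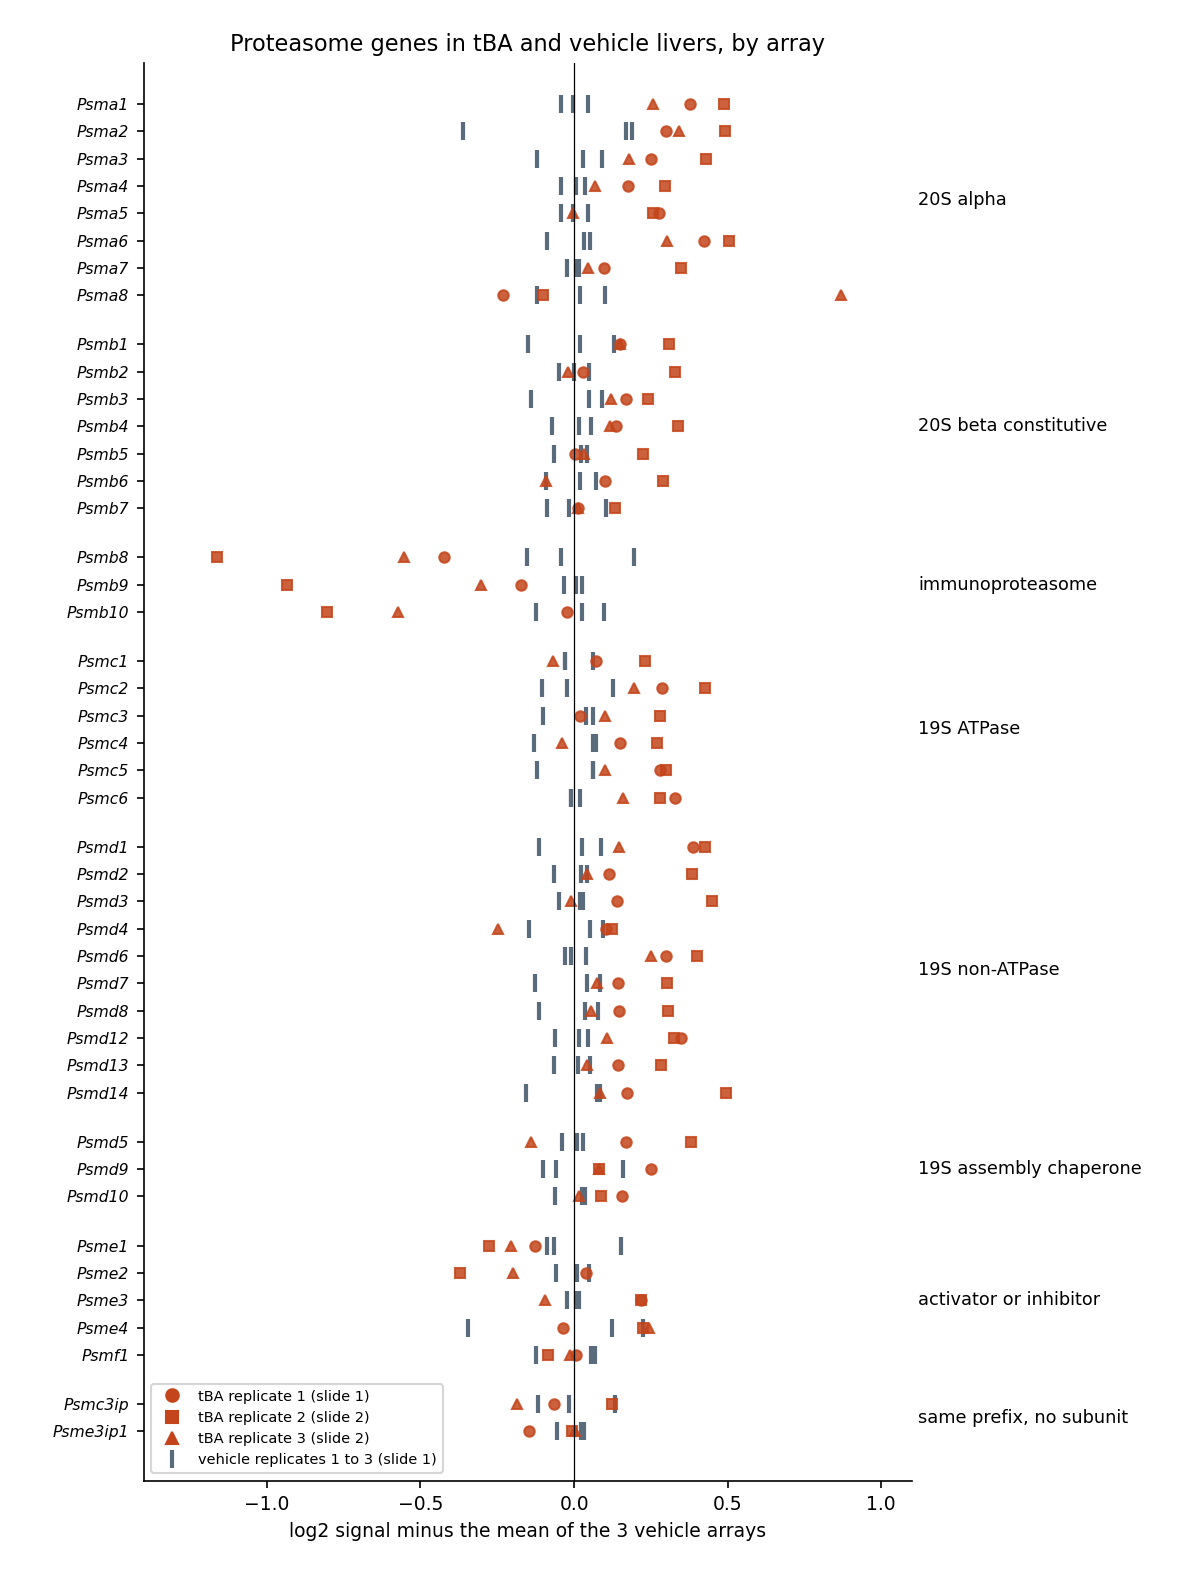
Log2 signal of each proteasome gene minus the mean of its 3 vehicle arrays (horizontal axis), by role; circles, squares and triangles are tBA replicates 1, 2 and 3 and bars are the vehicle arrays. The standard 20S and 19S subunits lie mostly right of 0 in the tBA arrays, and Psmb8, Psmb9, Psmb10, Psme1 and Psme2 mostly left.

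The 30 standard 20S and 19S subunits (the group without the testis-specific Psma8, formed after their values were seen) were higher with tBA in 29 of 30 cases, with a median log2 difference of 0.179, under quantile normalization in 27 of 30 and under median normalization in 30 of 30. The array medians of the group were 0.15, 0.31 and 0.075 in tBA replicates 1 to 3, against 0.033, -0.070 and 0.050 in vehicle replicates 1 to 3. Every tBA median lay above every vehicle median, tBA replicate 2 the furthest and tBA replicate 3 just above. On the first slide, tBA replicate 1 was above the vehicle mean for 30 of 30, with a median of 0.153, and above all 3 vehicle arrays for 26 of 30, beside 32.0% of all genes. These subunits are brightly measured genes. Among the 3509 genes within their range of signal the median log2 difference was 0.048. Of those genes 60.1% were higher with tBA, against 29 of the 30 subunits. All tBA arrays lay above all vehicle arrays for 18.6%, against 15 of the 30. At an unadjusted p under 0.05 (limma) 9.72% were higher, against 8 of the 30. The count of 8 was 3 when tBA replicate 1, tBA replicate 2 or vehicle replicate 2 was left out, 4 when vehicle replicate 1 was, and 3 within the first slide or under quantile normalization. The median of the 30 subunits was 0.112 under quantile normalization.

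Of the standard role groups the alpha ring had the largest median difference. All 7 of its standard subunits were higher with tBA, with a median log2 difference of 0.288 (0.280 within the first slide) and a range of 0.16 to 0.41. The planned role group, which also holds Psma8, had a median of 0.236 (0.263 within the first slide). All 8 of its members were higher, or 7 within the first slide. For 6 of the 7 the tBA arrays lay above all vehicle arrays, beside 18.6% of genes in the standard subunits' range of signal. Psma6, an alpha ring subunit, had 6.54, 6.62 and 6.42 in tBA livers, against 6.03, 6.15 and 6.17 in vehicle livers. The groups did not overlap, with a log2 difference of 0.41 ± 0.096 (SE), a 1.33-fold higher signal, at an unadjusted p of 0.00477 and an adjusted p of 0.203 by limma. Its probes gave 0.41 to 0.45. Psma1 had 4.87, 4.98 and 4.75 in tBA livers, against 4.49, 4.45 and 4.54 in vehicle livers. All its tBA arrays were again above the vehicle arrays, by 0.38 ± 0.096 (SE), a 1.30-fold higher signal (limma, unadjusted p = 0.00732, adjusted p = 0.221). The difference within the first slide was 0.43 for Psma6 and 0.38 for Psma1. Psma3, another alpha ring subunit, had 4.74, 4.92 and 4.67 in tBA livers, against 4.58, 4.37 and 4.52 in vehicle livers, and differed by 0.29 ± 0.11 (SE; limma, unadjusted p = 0.0365, adjusted p = 0.311). Psma2 differed by 0.38 with a larger SE of 0.17, since its vehicle replicate 2 was low at 3.12 against 3.65 and 3.67 in the other vehicle arrays. Psma4, Psma5 and Psma7 differed by 0.18, 0.18 and 0.16, and Psma5 was the 1 whose groups overlapped. Psma8, the testis-specific alpha subunit, was dim in liver, at -3.71, -3.58 and -2.61 in tBA livers, against -3.60, -3.38 and -3.46 in vehicle livers, and only tBA replicate 3 stood above the rest.

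The 7 standard beta subunits were also all higher with tBA as reported, but by less, with a median log2 difference of 0.113 (0.10 within the first slide) and a range of 0.05 to 0.20, and none had an unadjusted p under 0.05. Psmb4, a structural subunit, had 5.88, 6.08 and 5.86 in tBA livers, against 5.76, 5.67 and 5.80 in vehicle livers, a difference of 0.20 ± 0.10 (SE; limma, unadjusted p = 0.0933, adjusted p = 0.393). Psmb1, also structural, had 4.04, 4.20 and 4.04 in tBA livers, against 3.91, 3.74 and 4.02 in vehicle livers, a difference of 0.20 ± 0.11 (SE; limma, unadjusted p = 0.109, adjusted p = 0.410). Together with Psmb3, at 0.18, these were the 3 of 7 beta subunits whose groups did not overlap. Among genes in the standard subunits' range of signal, 18.6% had all tBA arrays above. The 3 catalytic subunits and the structural Psmb2, at 0.11 ± 0.12 (SE), had smaller differences, whose order was not tested, and Psmb2 was at 0.005 without tBA replicate 2 and 0.013 under quantile normalization. Psmb5, the chymotrypsin-like subunit, had 5.09, 5.31 and 5.12 in tBA livers, against 5.11, 5.02 and 5.13 in vehicle livers, a difference of 0.088 ± 0.098 (SE). Psmb6, the caspase-like subunit, had 3.58, 3.77 and 3.39 in tBA livers, against 3.55, 3.39 and 3.50 in vehicle livers, a difference of 0.099 ± 0.12 (SE). Psmb7, the trypsin-like subunit, had 3.55, 3.67 and 3.55 in tBA livers, against 3.64, 3.52 and 3.45 in vehicle livers, a difference of 0.054 ± 0.094 (SE) that was -0.0064 under quantile normalization. For all 3 catalytic subunits the groups overlapped and the difference was about as large as its SE or smaller.

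In the 19S cap, all 6 ATPases that form the unfolding ring were higher with tBA, with a median log2 difference of 0.181 (0.219 within the first slide) and a range of 0.07 to 0.30. The tBA arrays lay above the vehicle arrays for 3 of the 6 ATPases, Psmc2, Psmc5 and Psmc6. Among genes in the standard subunits' range of signal this share was 18.6%. The smallest of the 6, Psmc1, was -0.014 under quantile normalization and -0.0046 without tBA replicate 2. Psmc6 had 4.48, 4.43 and 4.31 in tBA livers, against 4.14, 4.14 and 4.17 in vehicle livers. Its vehicle arrays were nearly equal and all tBA arrays higher, by 0.25 ± 0.086 (SE), a 1.19-fold higher signal (limma, unadjusted p = 0.0249, adjusted p = 0.285), though the probes of the gene ranged down to 0.00. Psmc2 had 5.65, 5.79 and 5.56 in tBA livers, against 5.34, 5.26 and 5.49 in vehicle livers, a difference of 0.30 ± 0.11 (SE; limma, unadjusted p = 0.0294, adjusted p = 0.293). Of the 10 non-ATPase subunits, 9 were higher with tBA, with a median of 0.183 (0.144 within the first slide). At an unadjusted p under 0.05 (limma) 3 of the 10 were higher, Psmd1, Psmd6 and Psmd12, beside 9.72% of genes in that range of signal. Psmd6, a lid subunit, had 4.96, 5.06 and 4.91 in tBA livers, against 4.65, 4.63 and 4.70 in vehicle livers, a difference of 0.32 ± 0.086 (SE), which is 1.25-fold (limma, unadjusted p = 0.00879, adjusted p = 0.227). Psmd1, a large scaffold of the base, had 6.55, 6.59 and 6.31 in tBA livers, against 6.19, 6.05 and 6.25 in vehicle livers, a difference of 0.32 ± 0.11 (SE), which is 1.25-fold (limma, unadjusted p = 0.0302, adjusted p = 0.295). Both were among the 3 of 10 whose tBA arrays lay above all vehicle arrays, beside 18.6% of genes in that range of signal. Psmd4, a receptor for ubiquitin chains, was the 1 exception at -0.011 ± 0.14 (SE), with 4.49, 4.51 and 4.14 in tBA livers, against 4.44, 4.24 and 4.48 in vehicle livers, and it was at 0.063 under median normalization and 0.10 within the first slide. Psmd14, the deubiquitinase of the lid, differed by 0.25 ± 0.14 (SE) with overlapping groups.

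The 3 chaperones that help the base of the cap to assemble, Psmd5, Psmd9 and Psmd10, were higher with tBA by 0.14, 0.13 and 0.087, and the groups of all 3 overlapped. Psmd9 had 5.11, 4.94 and 4.94 in tBA livers, against 4.80, 5.02 and 4.76 in vehicle livers (SE 0.11; limma, unadjusted p = 0.268, adjusted p = 0.569). Psmd10 had 1.84, 1.77 and 1.70 in tBA livers, against 1.62, 1.72 and 1.71 in vehicle livers (SE 0.086; limma, unadjusted p = 0.348, adjusted p = 0.633).

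The immunoproteasome subunits went the other way. Psmb8, Psmb9 and Psmb10 were all lower with tBA, with a median log2 difference of -0.471, and Psmb8 was the 1 of the 44 members that was lower at an unadjusted p under 0.05. Psmb8, which takes the place of Psmb5, had 3.45, 2.71 and 3.32 in tBA livers, against 4.07, 3.83 and 3.72 in vehicle livers. All 3 tBA arrays lay below the vehicle arrays, tBA replicate 2 by the most. The log2 difference was -0.71 ± 0.21 (SE), a signal of 0.611 times that of vehicle (limma, unadjusted p = 0.015, adjusted p = 0.259). Psmb9, which takes the place of Psmb6, had 3.25, 2.49 and 3.12 in tBA livers, against 3.45, 3.39 and 3.43 in vehicle livers. The tBA arrays were below the narrow range of the vehicle arrays, by 0.47 on average, or 0.721 times (SE 0.20; limma, unadjusted p = 0.0574, adjusted p = 0.342). Psmb10, which takes the place of Psmb7, had 4.26, 3.48 and 3.71 in tBA livers, against 4.31, 4.16 and 4.38 in vehicle livers. Here tBA replicate 1 lay within the vehicle range and the other two tBA arrays below it, with a log2 difference of -0.47 ± 0.21 (SE), or 0.724 times (limma, unadjusted p = 0.0653, adjusted p = 0.353). In these livers, fewer cells of a type and less RNA per cell cannot be told apart.

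The PA28 pair was lower by less. Psme1 had 6.08, 5.93 and 6.00 in tBA livers, against 6.36, 6.14 and 6.12 in vehicle livers, all tBA arrays below the vehicle arrays, with a log2 difference of -0.20 ± 0.10 (SE; limma, unadjusted p = 0.0946, adjusted p = 0.394). Psme2 had 6.15, 5.74 and 5.91 in tBA livers, against 6.12, 6.05 and 6.16 in vehicle livers, overlapping through tBA replicate 1, with a difference of -0.18 ± 0.12 (SE; limma, unadjusted p = 0.194, adjusted p = 0.497). The other activators, which interferon-gamma does not induce, were not lower: Psme3, the nuclear PA28-gamma, differed by 0.12 ± 0.11 (SE) and Psme4, the PA200 activator, by 0.15 ± 0.18 (SE), with other probes of Psme4 down to -0.05 and -0.035 within the first slide. Psmf1, an inhibitor of the 20S core, differed by -0.032 ± 0.092 (SE) and was at 0.042 under median normalization. Psmc3ip and Psme3ip1, which are no subunits, differed by -0.039 and -0.047, within the range of their arrays.

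**Figure D2:**
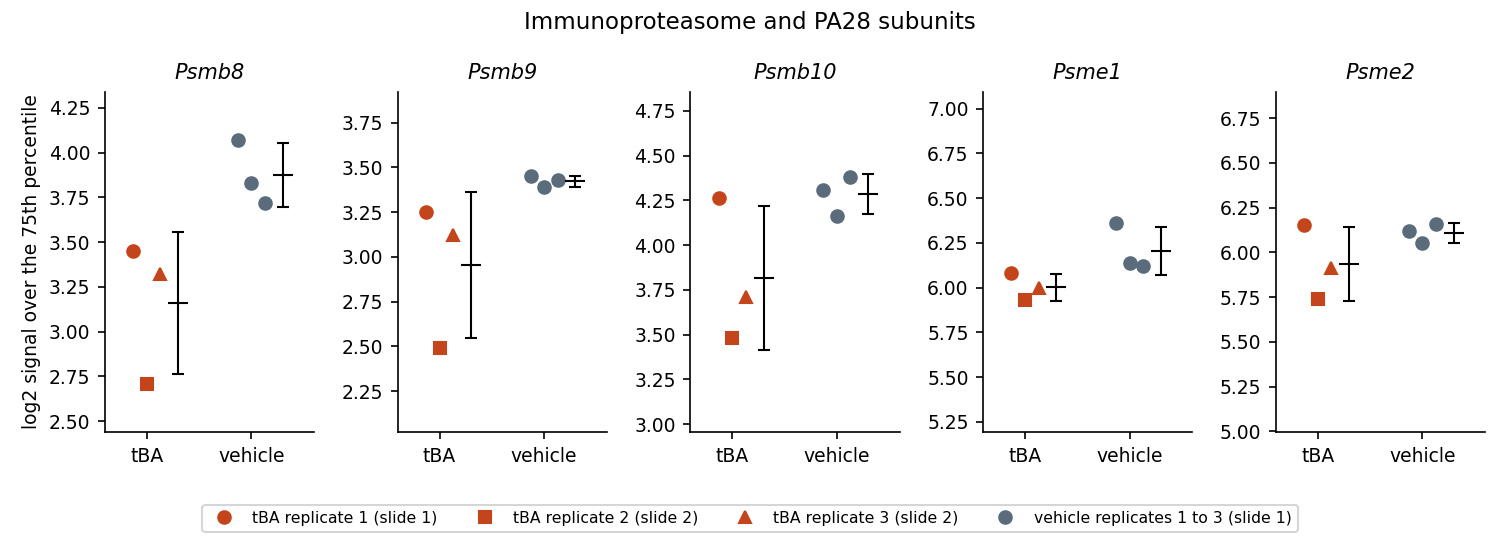
Log2 signal over the 75th percentile (vertical axis, equal span in each panel) of the 5 interferon-inducible subunits on each tBA array (left) and vehicle array (right), with mean ± SD. The tBA arrays lie below the vehicle arrays for Psmb8, Psmb9 and Psme1, and overlap them for Psmb10 and Psme2.

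The counts and medians of the 5 interferon-inducible subunits as a group were not planned. In the role groups Psme1 and Psme2 stood among the 5 activators and inhibitor, whose median log2 difference was -0.032. The 5 interferon-inducible subunits had a median log2 difference of -0.466, and their array medians were -0.13, -0.81 and -0.31 in tBA replicates 1 to 3, against 0.031, -0.063 and 0.0086 in vehicle replicates 1 to 3. The size was smaller without tBA replicate 2 and within the first slide. Without tBA replicate 2 all 5 were still lower, with a median of -0.241. Within the first slide 4 of the 5 were lower, with a median of -0.129, Psmb8 at -0.42, Psmb9 at -0.17, Psme1 at -0.13, Psmb10 at -0.02 and Psme2 at 0.03. On that slide tBA replicate 1 lay below all 3 vehicle arrays for Psmb8, Psmb9 and Psme1, as it did for 26.0% of all genes.

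Leukocyte markers were also mostly lower. Of 22 leukocyte marker genes tested, 16 were lower with tBA and 6 higher, at a median log2 difference of -0.22, beside 49.6% of all genes lower. The array medians of the markers were -0.17, -0.39 and 0.0015 in tBA replicates 1 to 3, against -0.10, 0.20 and -0.15 in vehicle replicates 1 to 3. The array medians of the groups overlapped: tBA replicate 2 was the lowest, as for the subunits, but tBA replicate 3 was within the vehicle range. At an unadjusted p under 0.05, 1 marker was lower and 0 were higher, none passed adjustment (limma), and within the first slide the median was -0.169. On that slide tBA replicate 1 lay below all 3 vehicle arrays for 10 of the 22, beside 26.0% of all genes. It lay above them for 2, beside 32.0%. The summed signal of T and NK cell markers, relative to the 75th percentile, was 2.19 to 3.06 in tBA livers and 2.66 to 4.24 in vehicle livers, with 7 of 8 tested markers lower and Cd3e and Cd2 not above background often enough to be tested. The sum of macrophage markers was 121 to 127 in tBA livers and 116 to 144 in vehicle livers, with 6 of 8 lower. The B cell sum was 0.273 to 0.582 in tBA livers and 0.433 to 0.647 in vehicle livers. The neutrophil sum was 1.56 to 2.03 in tBA livers and 0.864 to 1.78 in vehicle livers, and both tested neutrophil markers were higher. Ptprc, the pan-leukocyte CD45, differed by -0.23 ± 0.15 (SE; limma, unadjusted p = 0.164, adjusted p = 0.471). The part of leukocytes in the lower Psmb8, Psmb9 and Psmb10 was not tested.

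Set against the standard subunit it replaces on the same array, each immunoproteasome subunit made up less of the pair with tBA. The log2 ratio of Psmb8 to Psmb5 signal was -1.64, -2.60 and -1.80 in tBA livers, against -1.04, -1.19 and -1.41 in vehicle livers, so all tBA arrays were below the vehicle arrays, by 0.80 on average, or 0.575 times. The log2 ratio of Psmb9 to Psmb6 was -0.33, -1.27 and -0.28 in tBA livers, against -0.10, 0.00 and -0.06 in vehicle livers, again without overlap, and its average was lower by 0.57, or 0.673 times. The log2 ratio of Psmb10 to Psmb7 was 0.72, -0.20 and 0.16 in tBA livers, against 0.67, 0.63 and 0.93 in vehicle livers, with tBA replicate 1 inside the vehicle range, and its average was lower by 0.52, or 0.698 times. The exact two-sided permutation p was 0.1 for Psmb8 and Psmb9 and 0.3 for Psmb10. Adjusted over the 3 pairs these were 0.15, 0.15 and 0.3. Since 0.1 is the smallest that 3 arrays against 3 can give, this test could not reach the threshold used for genes. No conclusion is drawn from it. Within the first slide, the ratio of tBA replicate 1 differed from the vehicle mean by -0.42, -0.27 and -0.03 in the same order. The ratio compares changes and not amounts, since each probe has its own brightness. It also reuses the Psmb8, Psmb9 and Psmb10 values given above. Psmb5, Psmb6 and Psmb7 differed by only 0.088, 0.099 and 0.054, so the ratios are not separate evidence.

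**Figure D3:**
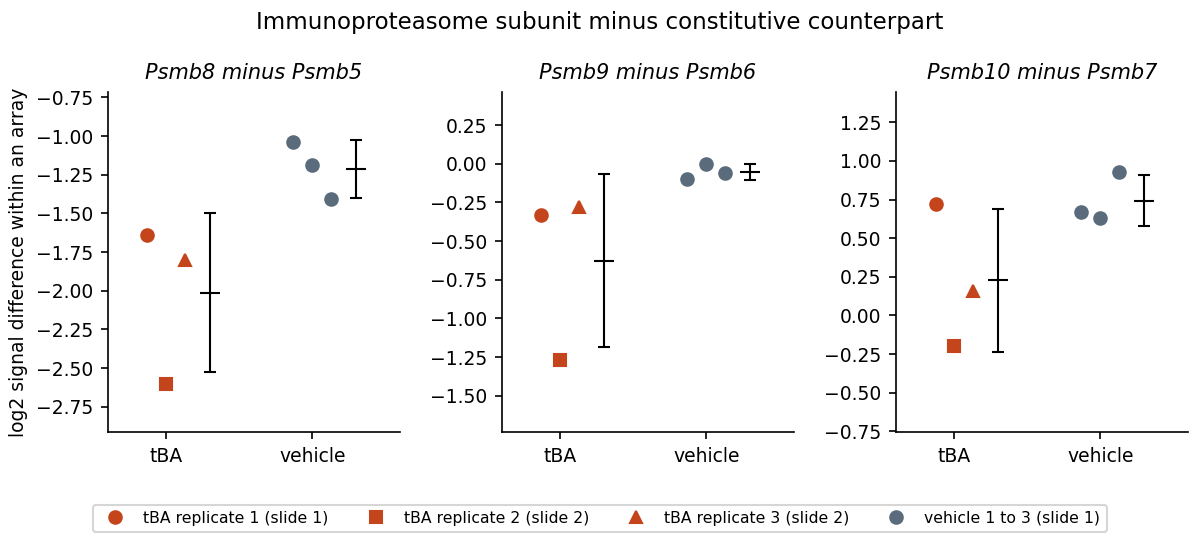
Log2 ratio of each immunoproteasome subunit to the standard subunit it replaces (vertical axis), on each tBA array (left) and vehicle array (right), with black bars for mean ± SD. The tBA arrays lie below the vehicle arrays for Psmb8 over Psmb5 and Psmb9 over Psmb6, and overlap them for Psmb10 over Psmb7.

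The genes around the proteasome were read from lists of its pathway, none of whose genes passed the adjusted test. Of 22 tested genes of interferon-gamma signalling and antigen presentation, 20 were lower with tBA and 2 higher, RT1-A2 and Irf1. Of all genes, 49.6% were lower. The median log2 difference of the 22 was -0.194. At an unadjusted p under 0.05 (limma) 4 were lower, beside 7.46% of all genes, and 0 higher. The array medians were -0.13, -0.39 and -0.14 in tBA replicates 1 to 3, against -0.075, 0.018 and 0.057 in vehicle replicates 1 to 3. All tBA medians were below all vehicle medians, and within the first slide 14 of the 22 were lower, with a median of -0.130. RT1-Db1, a class II antigen-presenting chain, had 1.91, 1.89 and 2.13 in tBA livers, against 2.38, 2.73 and 2.83 in vehicle livers, lower by 0.67 (SE 0.15; limma, unadjusted p = 0.00334, adjusted p = 0.198), with 4 of its 5 probes of that sign. Calr, a chaperone of class I molecules and of glycoproteins in general, had 4.14, 3.92 and 3.89 in tBA livers, against 4.43, 4.32 and 4.48 in vehicle livers, lower by 0.43 (SE 0.11; limma, unadjusted p = 0.00617, adjusted p = 0.219). Pdia3, the disulfide isomerase that works with Calr, had 3.77, 3.65 and 3.73 in tBA livers, against 3.89, 3.94 and 4.02 in vehicle livers, lower by 0.24 (SE 0.087; limma, unadjusted p = 0.0333, adjusted p = 0.303). All 3 were among the 5 of the 22 whose tBA arrays lay below all vehicle arrays, beside 11.4% of all genes. For 0 of the 22 the tBA arrays lay above all vehicle arrays, beside 12.8% of all genes.

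Most genes that bring ubiquitin and substrates to the proteasome were higher with tBA. Of 21 tested genes for ubiquitin, its activating and conjugating enzymes and shuttle or unfolding factors, 17 were higher with tBA and 4 were lower (median log2 difference 0.150, or 0.123 within the first slide), beside 50.4% of all genes higher and 60.1% of those in the standard subunits' range of signal, and 3 were higher at an unadjusted p under 0.05, beside 7.59% of all genes. Ubqln1, a shuttle that carries ubiquitinated proteins to the cap, had 4.41, 4.60 and 4.34 in tBA livers, against 4.11, 3.94 and 4.05 in vehicle livers, a difference of 0.42 ± 0.11 (SE; limma, unadjusted p = 0.0074, adjusted p = 0.221). Rps27a, which encodes ubiquitin fused to a ribosomal protein, had 7.05, 7.01 and 7.09 in tBA livers, against 6.76, 6.80 and 6.91 in vehicle livers, a difference of 0.22 ± 0.086 (SE; limma, unadjusted p = 0.0404, adjusted p = 0.316). Ubb, a polyubiquitin gene, had 8.72, 8.88 and 8.82 in tBA livers, against 8.60, 8.61 and 8.57 in vehicle livers, a difference of 0.22 ± 0.085 (SE; limma, unadjusted p = 0.0436, adjusted p = 0.322). The tBA arrays of all 3 lay above the vehicle arrays, as they did for 8 of the 21. This was so for 12.8% of all genes and 18.6% of those in the standard subunits' range of signal. The tBA arrays lay below for 2 of the 21, beside 11.4% of all genes. These 2 were picked out after their values were seen. Uba1, the main ubiquitin-activating enzyme, had 5.03, 4.97 and 4.83 in tBA livers, against 5.15, 5.13 and 5.06 in vehicle livers, a difference of -0.17 ± 0.092 (SE), with all 4 of its probes lower. Bag6, a chaperone of misdirected membrane proteins, differed by -0.18 ± 0.081 (SE).

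Assembly factors and free-standing cofactors showed less, with 7 of 9 tested genes higher, beside 50.4% of all genes. Their median was 0.040 (0.092 within the first slide), with 0 at an unadjusted p under 0.05 (limma). Pomp, which chaperones the forming 20S core, had 6.79, 6.67 and 6.67 in tBA livers, against 6.52, 6.55 and 6.47 in vehicle livers, a difference of 0.20 ± 0.085 (SE; limma, unadjusted p = 0.0575, adjusted p = 0.342). It was the 1 gene of the 9 whose groups were apart, beside 12.8% of all genes with the tBA arrays above. Ipo9, an importin that carries proteasomes into the nucleus, differed by -0.30 ± 0.14 (SE) and Usp14, a deubiquitinase on the cap, by 0.27 ± 0.14 (SE). Among 10 tested transcription factors of proteasome genes and their processing enzymes, 9 were higher and 1 was lower, beside 50.4% of all genes higher. Their median was 0.147 (0.110 within the first slide), and there were again 0 at an unadjusted p under 0.05 (limma). Nfe2l1 differed by 0.28 ± 0.17 (SE) and Nfe2l2 by 0.11 ± 0.22 (SE), both with overlapping groups. Bach1, a repressor at antioxidant response elements, had 0.12, 0.17 and -0.51 in tBA livers, against -0.56, -0.39 and -1.08 in vehicle livers, a difference of 0.60 ± 0.25 (SE; limma, unadjusted p = 0.0535, adjusted p = 0.337) with tBA replicate 3 inside the vehicle range. Stat3 differed by 0.30 (limma, unadjusted p = 0.113, adjusted p = 0.415), a sign that 1 of its 2 probes gave. Maff, a small partner of Nfe2l1 and Nfe2l2, was the 1 that was lower, at -1.03 ± 0.59 (SE). It had -4.24, -3.51 and -4.54 in tBA livers, against -3.93, -3.50 and -1.78 in vehicle livers, so vehicle replicate 3 stood apart, and the difference was -0.38 without that array and -0.30 with normexp background correction.

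**Figure D4:**
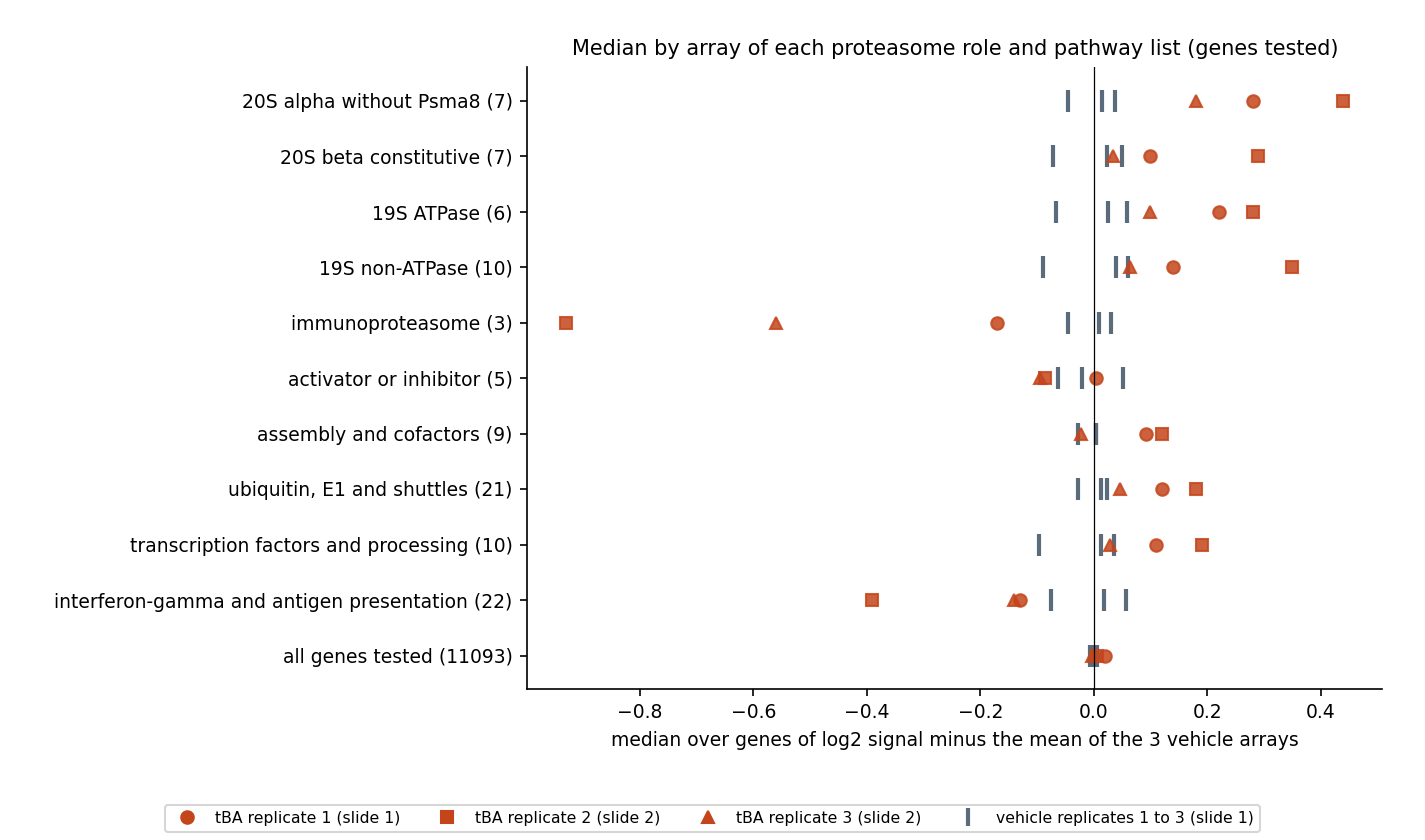
Median over the genes of each role group or pathway list of the log2 signal minus the vehicle mean (horizontal axis), by array; red symbols are tBA replicates 1 to 3 and bars the vehicle arrays. The alpha ring, the 19S ATPases, the 19S non-ATPases and the ubiquitin list lie right of the vehicle arrays. The immunoproteasome and the antigen presentation list lie left of them, and all genes tested at 0.

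The medians of the standard and of the interferon-inducible subunits kept opposite signs under each of the 20 other ways of processing, though single members such as Psmb7, Psmc1, Psmd4 and Psme2 changed sign under some and the sizes varied. The median of the 30 standard subunits lay between 0.112 and 0.253, and that of the 5 interferon-inducible subunits between -0.621 and -0.129.

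**Figure D5:**
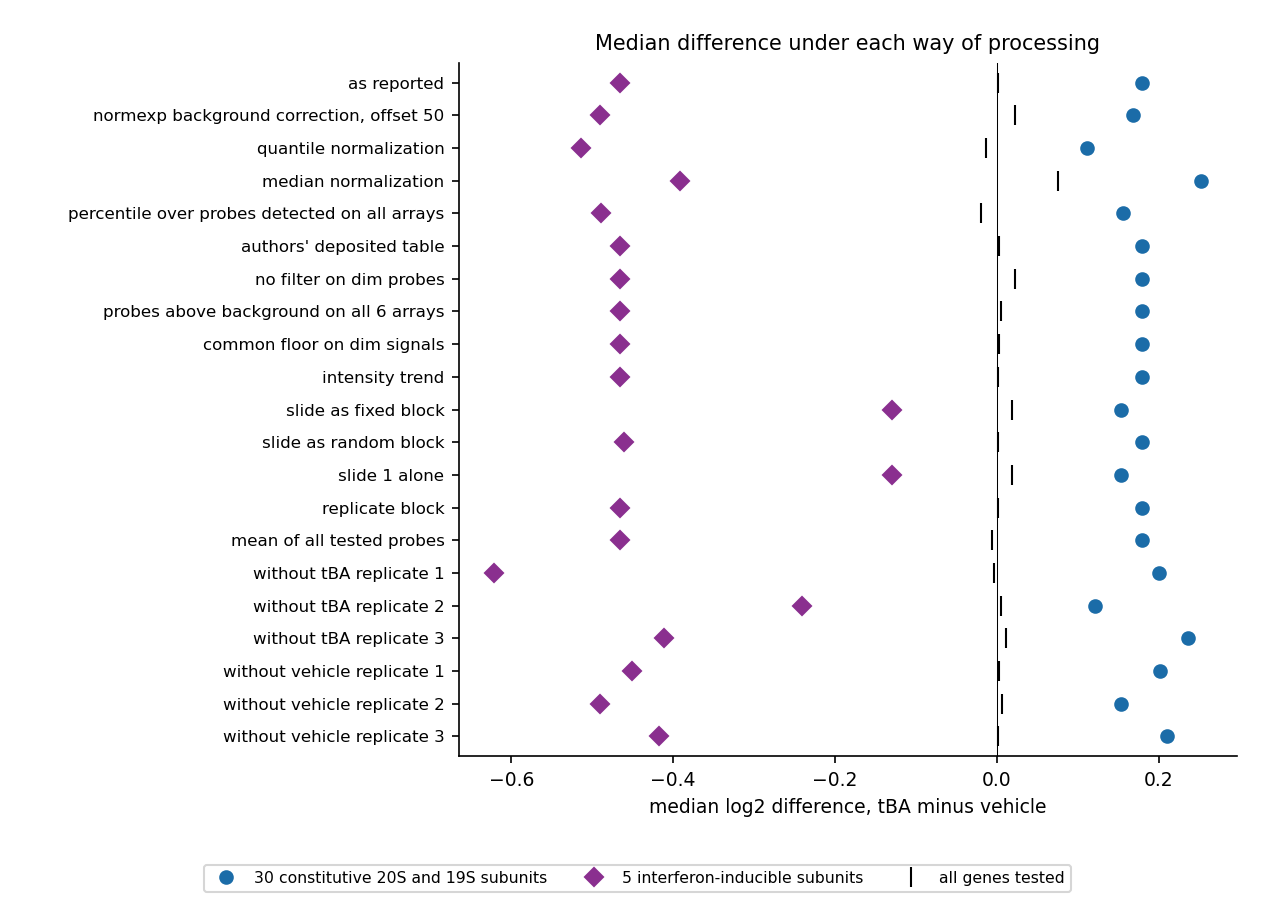
Median log2 difference, tBA minus vehicle (horizontal axis), of the 30 standard subunits (circles), the 5 interferon-inducible subunits (diamonds) and all genes tested (bars) under each way of processing. The circles stay between 0.112 and 0.253 and the diamonds between -0.621 and -0.129, closest to 0 within the first slide.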

How the data were processed

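The deposited files hold spot intensities that Agilent's Feature Extraction wrote (version 10.7.1.1 per the file headers, 10.7 per the submitters' processing notes) for a design annotated on rn4. The deposited series table holds a linear ratio per probe, each array's processed signal over 1 divisor of 570.0 to 639.5, close to its 75th percentile (569.9 to 639.1).

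Here the log2 processed signal minus the array's 75th percentile over 61657 non-control probes was used, and outlier spots (3 to 16 per array) were left out. Probes were named by matching their accession to the RefSeq table (GRCr8), which named 27460. The test took the 37647 probes that exceeded background clearly on every tBA or every vehicle array. Each gene is its brightest probe, and 11093 genes were tested. Of 23 members with several tested probes, 22 had all of 1 sign. Pseudogene copies of subunits could share a probe's signal, which was not tested. limma 3.58.1 (R 4.3.3) fitted tBA against vehicle, with Benjamini-Hochberg adjustment over genes and no covariate, after tests on simulated data. The dosing text gives 3 animals per group. The limma p-values and SEs rest on the spread between their arrays, which limma moderates with that of all probes tested. The number of arrays limits the precision.

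The members, role groups, pathway lists and markers were chosen with earlier results of these data known, so lists get counts and medians and no test. The pair ratios got an exact permutation test, from which no conclusion is drawn. Named with values were the interferon-inducible subunits, their standard counterparts, the 2 members of each other role with the smallest unadjusted p, the extremes, and up to 3 genes per pathway list by unadjusted p. Psma3, Psma8, Psmd4, Uba1, Bag6, Nfe2l1 and Nfe2l2 were added after their values were seen. Alternatives changed background correction, scaling, filters, variance model, slide, probe rule and arrays. Background correction by normexp (offset 50) used the median spot signal. Naming by the arrays' own gene names was not run.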

Additional observations from a re-analysis of the deposited data

How the results depend on the processing

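No proteasome gene passed an adjusted p of 0.05 under any of the 20 other settings. The 42 probes that passed it over all arrays (of 37647) were 64 with a common floor, 68 with an intensity trend, 18 with no filter, 0 with probes above background on all 6 arrays, 0 within the first slide, 20 with slide as a fixed block and 6 to 45 without 1 array. The 4 genes were 0 with no filter, 2 with the all-array filter, 0 within the first slide, 1 with slide as a fixed block and 0 to 4 without 1 array. Of the members, 9 had an unadjusted p under 0.05, against 14 with an intensity trend, 3 within the first slide, 3 with slide as a fixed block and 4 to 11 without 1 array; for the standard subunits the 8 were 12 under median normalization, 3 under quantile normalization and 3 to 10 without 1 array.

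With the replicate number as a block the counts were 6 probes, 0 genes, 5 members and 3 standard subunits. The deviations of same-numbered arrays had correlations of -0.056, -0.064 and 0.014, beside -0.058 to 0.113 for arrays of other numbers. With 1 array per number and group, these values cannot decide whether the numbers pair the animals. The labels state no pairing.

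Median normalization moved the median of all genes to 0.076, and the share of genes at an unadjusted p under 0.05 that were higher with tBA was 74.4% under it, 40.0% with the percentile over probes detected on all arrays and 50.4% as reported. The median of all members was 0.079 under quantile normalization, 0.234 under median normalization and 0.091 to 0.218 without 1 array, that of the standard subunits 0.112 to 0.253 over all settings and 0.122 to 0.236 without 1 array, and that of the interferon-inducible subunits -0.129 with slide as a fixed block and -0.621 to -0.241 without 1 array.

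Of 1120 values for 56 named genes, 26 changed sign, in 9 genes, with 9 of 600 among standard and 2 of 100 among interferon-inducible subunits. Within the first slide, and with slide as a fixed block, these were Psma8 (-0.23), Psmd4 (0.10), Psme2 (0.034), Psme4 (-0.035) and Psmf1 (0.0041); under quantile normalization Psmb7 (-0.0064) and Psmc1 (-0.014); under median normalization Psmc3ip (0.034), Psmd4 (0.063), Psme3ip1 (0.027) and Psmf1 (0.042); and with normexp Psmc3ip (0.050). Without 1 array, the values ran from -0.16 to 0.39 for Psma8, from -0.0046 to 0.14 for Psmc1, from -0.12 to 0.031 for Psmc3ip, from -0.083 to 0.11 for Psmd4, from -0.025 to 0.26 for Psme4, from -0.091 to 0.0023 for Psmf1. The cause of these changes was not tested. Naming genes by the arrays' own gene names was planned and not run.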
